A study of Mus musculus with 14 samples.

Results

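The smooth muscle contractile genes followed here are Acta2, Myl9, Cnn1, Tagln, Actg2, Myh11, Cald1, Tpm1, Tpm2 and Lmod1, 10 of the 55415 rows in each of a pair of mouse RNA sequencing count tables. They were found by symbol in both tables and were picked because several of them stood out in the acute drug comparison described below. Their acute values are therefore given as a description without a test, and tests are kept for the resistant cultures and for other genes. In those cultures the rise of Acta2 was also known beforehand.

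Every library came from TR.1 cells, a line of mouse lung adenocarcinoma that carries a Trim24-RET fusion, an oncogene that joins the RET receptor tyrosine kinase to Trim24. Selpercatinib and pralsetinib are selective RET kinase inhibitors, and DMSO is their solvent. The acute experiment had 8 libraries, 1 from DMSO (0.1%) and 1 from 100 nM selpercatinib on each of days 1, 2, 3 and 5. The resistance experiment had 6 libraries, of which 2 were parental cells passaged in DMSO, 2 were selpercatinib-resistant cells (500 nM) and 2 were pralsetinib-resistant cells labelled 200 and 400 nM. The resistant cells started at 30 nM and were raised over about 60 days to grow in 400 to 500 nM, per the labels' protocol, so the 200 nM label does not match it and that dose is uncertain. All 14 libraries are from a single line, and whether the libraries of a group are separate cultures is not stated. The p-values therefore reflect spread between the sequenced libraries, which may be technical. Libraries held 60.7 to 89.8 M counts, and 3 counts, taken as the floor of detection, were worth 0.0334 to 0.0526 CPM, the unit in which a count is scaled to the size of its library. Floors and counting intervals cover counting error only.

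Smooth muscle cells shorten when myosin filaments, with heavy chains from Myh11 and regulatory light chains from Myl9, pull on thin filaments of smooth muscle actin from Acta2 and Actg2. Tropomyosins (Tpm1, Tpm2), caldesmon (Cald1), calponin (Cnn1) and transgelin (Tagln) bind those thin filaments, and leiomodin (Lmod1) starts new ones. Contraction begins when myosin light chain kinase (Mylk) phosphorylates the light chain. Many of these genes are switched on by serum response factor (SRF), with its coactivators myocardin (Myocd) and the myocardin-related factors (Mrtfa, Mrtfb), at promoter elements called CArG boxes, and Acta2 also carries M-CAT elements, which TEAD factors bind. Outside muscle the same actin and calponin mark myofibroblasts and myoepithelial cells, and Tpm1, Tpm2 and Cald1 also make non-muscle isoforms.

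The promoter elements are shown because several of the genes carry them within 250 bases before their start. RefSeq promoters (GRCm38.p6) were on hand for 7 of the 10 genes, as 8 entries, with Cald1 entered at a pair of starts, and both strands were searched for a CArG box with at most 1 G or C among its 6 central bases and for the M-CAT sequence CATTCC, which reads GGAATG on the other strand. The motifs searched do not overlap one another here. Below, capitals mark the motif and 10 flanking bases are given on each side, 5′ to 3′ on the strand of the gene.
Acta2 CArG box, chr19:34255438-34255467, minus strand: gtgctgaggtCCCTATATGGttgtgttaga
Acta2 CArG box, chr19:34255388-34255417, minus strand: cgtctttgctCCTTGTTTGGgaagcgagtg
Acta2 M-CAT, chr19:34255504-34255529, minus strand: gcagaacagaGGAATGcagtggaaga
Myl9 CArG box, chr2:156775293-156775322, plus strand: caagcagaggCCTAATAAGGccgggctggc
Myl9 CArG box, chr2:156775355-156775384, plus strand: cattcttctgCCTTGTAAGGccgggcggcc
Lmod1 M-CAT, chr1:135324673-135324698, plus strand: aagattccctGGAATGtcctcaagtt
Tpm1 M-CAT, chr9:67049254-67049279, minus strand: gctgtcctaaGGAATGcggtcgcccc
Cald1 M-CAT, chr6:34598341-34598366, plus strand: gcatgcctagGGAATGacaggcatct

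The Acta2 boxes began 84 and 34 bases before its RefSeq start, and those of Myl9 161 and 99 bases before. The first Myl9 box has no G or C at its centre, and 1.47% of all 32851 promoters hold a box of that kind. With 1 such base allowed, 8.59% of promoters hold a box, and M-CAT was present in 12.6%. The 3 Acta2 windows and the Tpm1 window overlap a GENCODE exon of their own gene, and the GENCODE coordinates of both genes begin further upstream than these windows. No CArG box of this definition was in the windows of Cnn1, Tpm1, Tpm2, Cald1 or Lmod1, which says only that these letters are absent there, and Tagln, Actg2 and Myh11 had no promoter entry.

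The genes fell into 3 sets by their level. The thin filament regulators Tpm1, Cald1 and Tpm2 were already abundant in DMSO cells, the actin Acta2, the light chain Myl9 and calponin were near 0 and came to be abundant under selpercatinib, and Tagln, Actg2, Myh11 and Lmod1 were near 0 and reached at most 14.2 CPM. Together the 10 genes took 0.222 to 0.258% of all counts in DMSO, and 0.563, 0.626, 0.660 and 0.863% in selpercatinib on days 1, 2, 3 and 5. Values are CPM scaled by the TMM method, and ratios are log2 of selpercatinib over DMSO after adding 1 CPM, which understates the change of genes near 0.

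**Figure D1:**
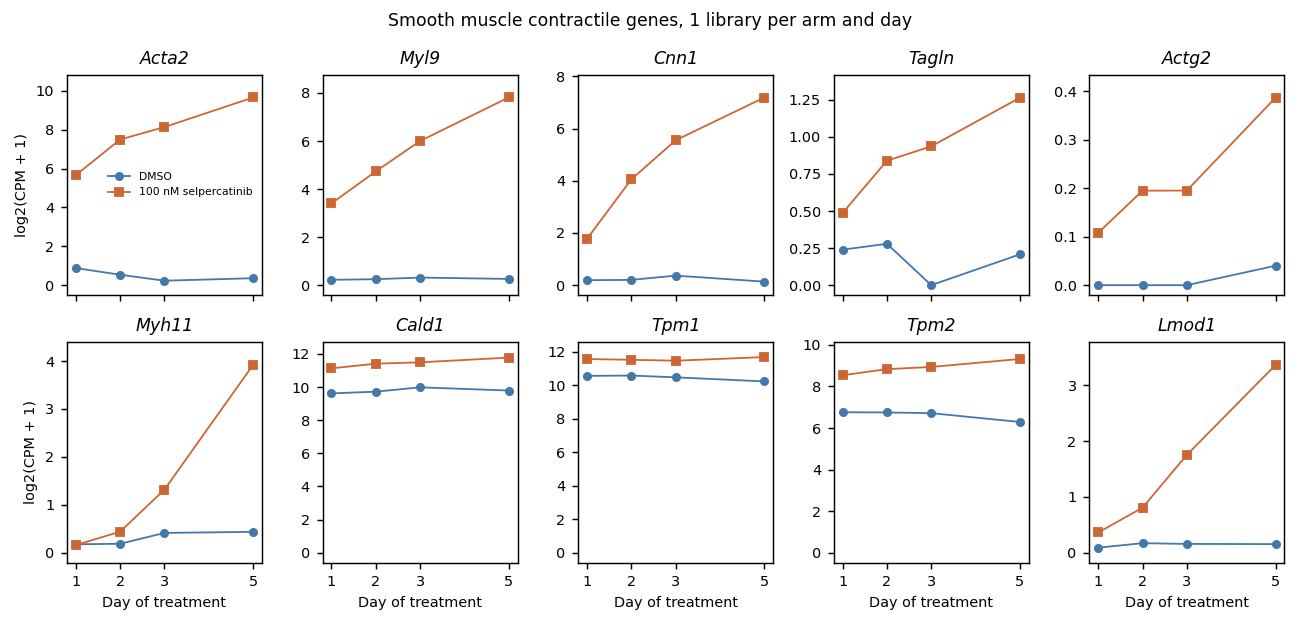
Level of each contractile gene (log2(CPM + 1), y axis, own range per panel) against day of treatment, with 1 library per point, circles for DMSO and squares for 100 nM selpercatinib. On day 5 Acta2 reached 808 CPM, while Actg2 stayed at 0.308 CPM, and the arms of Myh11 touch on day 1.

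Acta2 (chr19:34241090-34255590, minus strand, mm10) encodes the smooth muscle alpha actin of the thin filament. In DMSO it stood at 0.839, 0.452, 0.173 and 0.282 CPM on days 1, 2, 3 and 5, from 12 to 65 counts per library. In selpercatinib it stood at 49.7, 179, 281 and 808 CPM on the same days. The arms did not overlap, every later selpercatinib library was higher than the one before it, and the DMSO libraries stayed under 1 CPM throughout. The log2 ratio was 4.79, 6.96, 7.91 and 9.30 on days 1, 2, 3 and 5, and without the added CPM the day 5 libraries differed 2867-fold, with a 95% counting interval of 1856 to 4694. Only 0.326% of the 50-base stretches of its transcripts occur in another gene, among them the cytoplasmic actin gene Actg1.

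Myl9 (chr2:156775420-156781658, plus strand) encodes the regulatory light chain that Mylk phosphorylates. Its DMSO libraries held 0.168, 0.188, 0.245 and 0.197 CPM in order of day, and its selpercatinib libraries 9.59, 25.6, 63.1 and 224 CPM. The arms were apart on every day and the selpercatinib level was higher at each later day, as for Acta2. The log2 ratio was 3.18, 4.49, 5.69 and 7.55.

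Cnn1 (chr9:22099216-22109630, plus strand), the calponin that restrains the myosin ATPase on actin, was at 0.142, 0.151, 0.288 and 0.0986 CPM in DMSO. Under selpercatinib it was at 2.43, 15.6, 45.9 and 145 CPM. Its first-day library was the lowest of the treated ones by a wide margin, and the day 5 library was 59.7 times as high as the day 1 library, against 16.2 times for Acta2 and 23.4 times for Myl9. The log2 ratio was 1.58, 3.85, 5.19 and 7.05.

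Tpm2 (chr4:43514711-43523765, minus strand), which encodes beta tropomyosin, was at 107, 107, 104 and 77.3 CPM in DMSO on days 1, 2, 3 and 5. In selpercatinib it was at 371, 455, 490 and 639 CPM. The treated level was higher at each later day, and the DMSO library of day 5 was lower than the other DMSO libraries, so both arms contribute to the widening. The log2 ratio was 1.78, 2.08, 2.23 and 3.03.

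Cald1 (chr6:34598500-34775473, plus strand), which encodes the actin-binding caldesmon, was at 784, 841, 1009 and 882 CPM in DMSO. It was at 2237, 2718, 2877 and 3500 CPM in selpercatinib. The lowest treated library was thus above the highest DMSO library, and the ratio did not climb with each day, at 1.51, 1.69, 1.51 and 1.99 on the log2 scale. The annotation lists 18 transcripts for Cald1, and gene counts merge its smooth muscle and non-muscle forms.

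Tpm1 (chr9:67022590-67049406, minus strand), which encodes alpha tropomyosin and has 21 annotated transcripts, was at 1521, 1541, 1431 and 1208 CPM in DMSO. It was at 3060, 2958, 2850 and 3317 CPM in selpercatinib. Most of its difference was in place on the first day, with a log2 ratio of 1.01, then 0.94 and 0.99, and 1.46 on day 5. Its treated libraries did not rise with every day, the only member of which this holds, and its DMSO libraries were lowest on day 5.

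**Figure D2:**
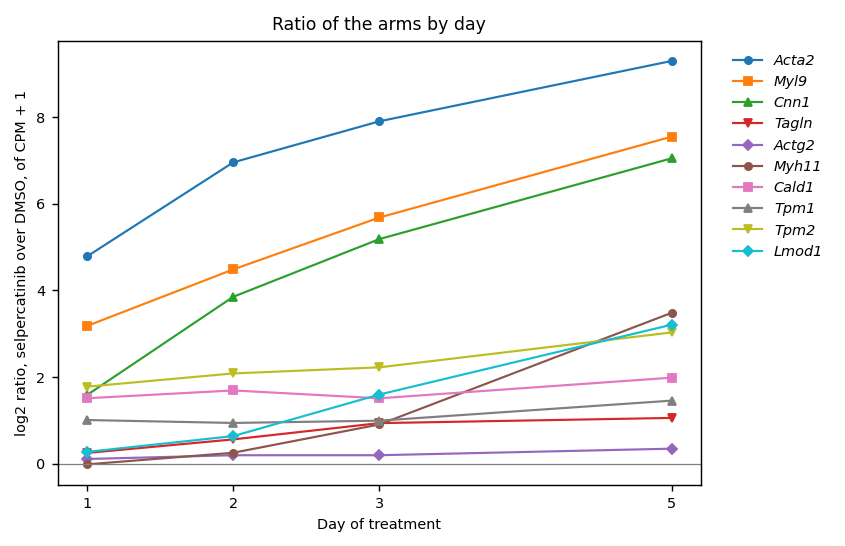
Log2 ratio of selpercatinib to DMSO after adding 1 CPM (y axis) against day of treatment (x axis), with 1 line per contractile gene and 1 pair of libraries per point. Acta2, Myl9 and Cnn1 end at 9.30, 7.55 and 7.05, while Tpm1 and Cald1 stay between 0.94 and 1.99.

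Myh11 and Lmod1 came late. Myh11 (chr16:14194535-14291372, minus strand), the smooth muscle myosin heavy chain, was at 0.129, 0.138, 0.331 and 0.352 CPM in DMSO and at 0.117, 0.355, 1.49 and 14.2 CPM in selpercatinib. Its arms overlapped, since the day 1 treated library was below all DMSO libraries, and the day 5 treated library, with 1150 counts, stood far above the others. The log2 ratio was -0.02, 0.25, 0.91 and 3.49. Lmod1 (chr1:135324807-135368065, plus strand), the filament nucleator, was at 0.0645, 0.125, 0.115 and 0.113 CPM in DMSO and at 0.285, 0.750, 2.37 and 9.30 CPM in selpercatinib. Its arms did not overlap, and its ratio was 0.27, 0.64, 1.60 and 3.21 in order of day.

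Tagln and Actg2 stayed low. Tagln (chr9:45929619-45936058, minus strand), which encodes transgelin, was at 0.181, 0.213, 0 and 0.155 CPM in DMSO and at 0.402, 0.790, 0.914 and 1.40 CPM in selpercatinib. The arms did not overlap and the ratio was 0.25, 0.56, 0.94 and 1.06. Of its exon bases 62.4% are overlapped on the opposite strand by the antisense gene Gm48529 and 5.43% by Pcsk7, a protease gene, which leaves 32.1% free of overlap. The strand setting of the counting is not given in the sources used here, and a counter that drops shared reads would lose those of the overlap, so the level of Tagln is uncertain and the part of the overlap in it was not tested. Gm48529 itself held 10 to 51 counts in each of the 14 libraries.

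Actg2 (chr6:83512905-83536265, minus strand), the enteric smooth muscle gamma actin, had 0 counts in the DMSO libraries of days 1, 2 and 3 and 2 counts on day 5. Under selpercatinib it had 6, 11, 13 and 25 counts, or 0.0778, 0.145, 0.145 and 0.308 CPM. Set against the floor of 3 counts, the treated library was at least 2.01-fold, 3.85-fold and 3.36-fold higher on days 1, 2 and 3. On day 5 the ratio was 10.9, with a 95% counting interval of 2.72 to 95.1.

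Counted over the 10 genes, 9 had every selpercatinib library above every DMSO library, where the same held for 20.4% of the 13209 genes tested, and 8 had a larger log2 ratio at each later day, against 9.4% of those genes. Since the genes were picked on this contrast, nothing is read from these counts. Only 6 of the 10 passed the filter of at least 1 CPM in at least 4 acute libraries. Acta2, Myl9 and Cnn1 passed it through their treated libraries alone, and Tagln, Actg2, Myh11 and Lmod1 did not pass.

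Per kilobase of exon, with each level divided by the joined length of all annotated exons of the gene, the order in selpercatinib changed between days. On day 1 Tpm1 led at 472 CPM per kb, followed by Cald1 at 186, Tpm2 at 128, Acta2 at 22.6 and Myl9 at 8.25 CPM per kb. By day 5 Acta2 had moved from the fourth to the second place, at 368 CPM per kb, between Tpm1 at 512 and Cald1 at 291, with Tpm2 at 220 and Myl9 at 193 CPM per kb. Cnn1 was sixth at 53.0 CPM per kb, and Lmod1, Myh11, Tagln and Actg2 lay between 0.198 and 2.36 CPM per kb. With 1 library per day these places carry no spread, and exon length merges the transcripts of a gene. That length was 12.0 kb for Cald1, 6.485 kb for Tpm1, 2.91 kb for Tpm2 and 2.20 kb for Acta2. Which transcripts were expressed is not known, and a longer joined length places a gene lower. The place of Acta2 above Cald1 rests on it, since day 5 levels were 808 CPM for Acta2 and 3500 CPM for Cald1.

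Other genes of the contractile machinery were measured in the same acute comparison. Their list did not enter the choice of the 10 genes, but it was drawn up with results of this contrast known, so its count is no independent support. Of 34 further genes of myosin phosphorylation, thin filaments and their anchoring, 30 were measured, and 24 rose, 3 fell and 3 did not pass edgeR's quasi-likelihood test. Of all 13209 genes 53.5% passed that test, 26.6% higher and 26.9% lower. The median log2 change of the list was 1.02, against -0.00 over all genes. Myl12b, a non-muscle regulatory light chain, went from 6.01 ± 0.461 to 27.0 ± 3.99 CPM (SD, n = 4 libraries each), a log2 change of 2.15 (SE 0.14, adjusted p = 8.13e-05 in edgeR). Ppp1r12b, a myosin phosphatase subunit, rose by 1.79 (SE 0.08), Zyx, a focal adhesion protein gene, by 1.45 (SE 0.11), and Ldb3, a Z-disc protein gene, by 4.60 (SE 0.33), from at most 0.380 CPM in DMSO to 1.39, 2.20, 5.05 and 9.02 CPM on days 1, 2, 3 and 5. Ldb3 and Synpo2, another gene of the list, passed the filter through their treated libraries alone, so for these only a rise could be called.

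Among the genes that fell, Mylk is the kinase that acts on Myl9. Mylk was at 7.07, 9.47, 7.76 and 5.54 CPM in DMSO on days 1, 2, 3 and 5 and at 4.97, 4.57, 3.96 and 2.74 CPM in selpercatinib. The treated library was the lower one on each of the 4 days, and the log2 change was -0.89 (SE 0.15, edgeR adjusted p = 0.00275). Smtn, which encodes smoothelin, fell by 0.78 (SE 0.12), from 119 to 133 CPM in DMSO down to 54.6 to 95.02 CPM in selpercatinib, with edgeR adjusted p = 0.00194. The intermediate filament gene Des and the channel subunit gene Kcnmb1, further marks of differentiated smooth muscle, were not measurable, at no more than 0.381 and 0.0370 CPM in any acute library.

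All 4 of the other actin genes were looked at. Acta1, the skeletal muscle actin, was at 0.607, 1.08, 10.5 and 3.71 CPM in DMSO and at 3.98, 9.49, 28.7 and 126 CPM in selpercatinib on days 1, 2, 3 and 5. Its treated libraries were above the same day's DMSO library on each day, though the arms overlapped, and its log2 change was 3.09 (SE 0.59, edgeR adjusted p = 0.00485). The cytoplasmic actins Actg1 and Actb rose by 1.32 (SE 0.26) and 0.67 (SE 0.20), with edgeR adjusted p = 0.00533 and 0.0279. Their DMSO libraries declined across the days, Actg1 from 1247 to 375 CPM, while the treated ones stayed between 1841 and 2209 CPM. Actc1, the cardiac actin, did not exceed 0.100 CPM.

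Regulators of SRF-driven transcription were tested next. Of 18 names in the list of SRF, its coactivators and cofactors 16 were in the table and 14 were measured. Of these 7 rose, 2 fell and 5 did not pass, with a median log2 change of 0.21. Over all 13209 genes 53.5% were called, 26.6% higher and 26.9% lower, and nothing is read from the count. Srf was at 98.2, 73.0, 63.8 and 49.1 CPM in DMSO and at 132, 101, 104 and 99.9 CPM in selpercatinib, a log2 change of 0.66 (SE 0.11, edgeR adjusted p = 0.00309). The treated library was higher on each day, and the DMSO level declined with the days. Mrtfb rose by 0.63 (SE 0.09) and Mrtfa by 0.24 (SE 0.07), with edgeR adjusted p = 0.00149 and 0.0220. Elk4, another gene of the list, was at 63.6, 65.4, 69.7 and 60.0 CPM in DMSO in order of day. In selpercatinib Elk4 was lower on each day, at 51.1, 51.1, 44.8 and 45.1 CPM. Myocd was hardly detected, with 5, 2, 3 and 1 counts in DMSO and 32, 20, 37 and 20 counts in selpercatinib on days 1, 2, 3 and 5, and was too low for the test.

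The LIM domain cofactors Fhl1, Csrp1 and Csrp2 from the same list rose with the smallest p apart from Mrtfb. Fhl1 was at 2.38, 2.96, 5.17 and 5.17 CPM in DMSO and at 20.9, 58.4, 113 and 221 CPM in selpercatinib, so that its treated libraries climbed with the days as those of Acta2 did. Its log2 change was 4.36 (SE 0.36, edgeR adjusted p = 0.000172). Csrp1 and Csrp2, which encode cysteine-rich LIM proteins of smooth muscle, rose by 2.35 (SE 0.15) and 1.66 (SE 0.27), with edgeR adjusted p = 6.93e-05 and 0.00275.

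**Figure D3:**
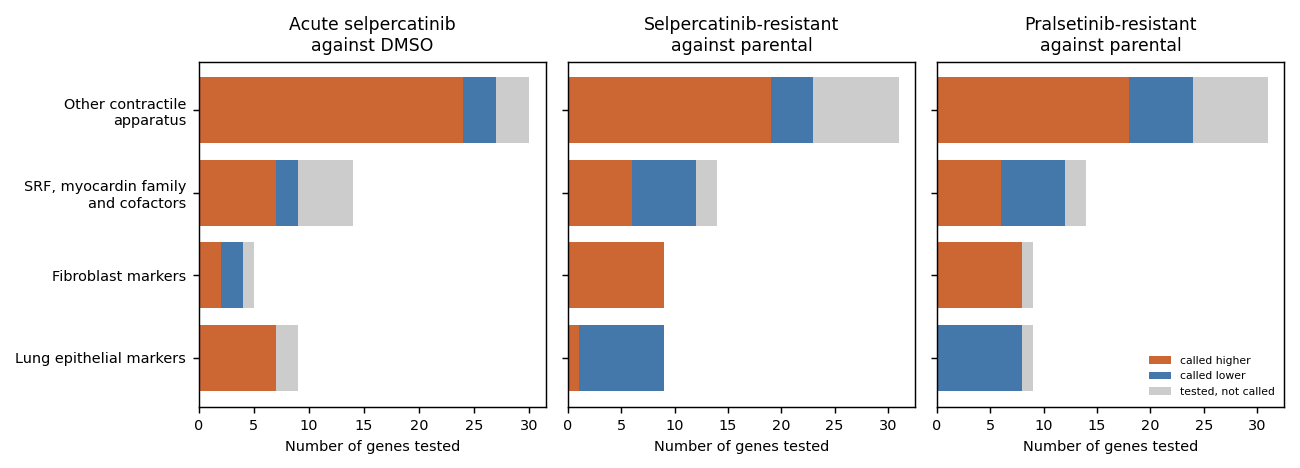
Number of genes tested (x axis) in 4 gene lists that leave out the 10 contractile genes, split into called higher, called lower and not called at an adjusted p of 0.05 in edgeR, for 3 comparisons. Further contractile genes were mostly higher in each comparison, at 24 of 30, 19 of 31 and 18 of 31, while lung epithelial markers were higher in 7 of 9 genes acutely and lower in 8 of 9 genes in both resistant groups. Over all genes tested 26.6, 35.2 and 35.8% were called higher and 26.9, 34.4 and 34.6% lower, in order of comparison.

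Markers of cell types that carry the contractile genes were read beside them. Of 13 other smooth muscle and pericyte markers only 3 were measurable acutely, and Mcam and Notch3 rose, by 3.41 (SE 0.30) and 1.54 (SE 0.16), while Npnt, the most abundant of the list, fell by 1.09 (SE 0.10). The summed level of the 13 genes was 399 to 658 CPM in DMSO and 501 to 673 CPM in selpercatinib, with Pln and Ntrk3 at 0 in all 4 treated libraries and Rgs5, Kcnj8, Abcc9 and Higd1b under 0.25 CPM in them. These sums hide opposite changes. Npnt was at 366 to 631 CPM in DMSO and 154 to 366 CPM in selpercatinib, while Mcam reached 507 CPM in selpercatinib on day 5. The 12 fibroblast markers summed to 52.9 to 72.6 CPM in DMSO and to 59.4 to 65.3 CPM in selpercatinib. Of 5 tested genes 2 were higher and 2 lower, where 26.6% of all genes were higher and 26.9% lower. Col5a1 alone was at 35.4 to 41.3 CPM in DMSO and 26.1 to 42.8 CPM in selpercatinib, and other genes of the list moved in opposite directions. Thy1, a surface protein gene of fibroblasts, was at no more than 0.100 CPM in DMSO and at 0.195, 0.790, 3.28 and 14.6 CPM in selpercatinib in order of day, and Postn, a matrix protein gene, was at no more than 0.103 CPM in DMSO and reached 2.41 CPM on day 5, neither of them passing the filter. Fbln1, which encodes fibulin, fell by 1.89 (SE 0.20), to 1.51 CPM on day 5. The part of these marker changes in the acute levels of the contractile genes was not tested. The 7 myoepithelial and basal markers summed to 2.04 to 4.43 CPM in DMSO and 14.2 to 24.2 CPM in selpercatinib, with Krt5 at 0 in the treated libraries. Krt14, the only gene of the list that passed the filter, rose by 3.38 (SE 0.27). Krt17, a basal keratin gene that did not pass, was at 0.0904, 0.163, 0.101 and 0.0846 CPM in DMSO and at 0.545, 1.22, 3.48 and 5.39 CPM in selpercatinib, higher at each later day as Acta2 was. Skeletal and cardiac markers summed to 147 to 275 CPM in DMSO and 25.7 to 34.7 CPM in selpercatinib, mostly Tnnt2, a cardiac troponin gene that fell by 3.11 (SE 0.24), with Myod1 and Myog at 0 in all 4 treated libraries. Endothelial and immune markers summed to 6.94 to 22.4 CPM and 18.1 to 20.03 CPM, and of the 3 tested Csf1r and Kdr rose and Cd68 fell, Csf1r having passed the filter through treated libraries alone.

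The epithelial label held through the acute course. The 11 lung epithelial markers summed to 7263, 7583, 6070 and 5776 CPM in DMSO in order of day. In selpercatinib they summed to 10142 to 10908 CPM, so the lower late DMSO sums contribute to the gap. Of 9 measured genes 7 rose, none fell and 2 did not pass, where 26.6% of all genes were higher and 26.9% lower. Cdh1, the E-cadherin gene, rose by 1.05 (SE 0.08) and Krt8, a simple epithelial keratin gene, by 0.84 (SE 0.17). The claudin genes Cldn4 and Cldn7 rose by 1.46 (SE 0.12) and 0.55 (SE 0.07). Krt8 declined in DMSO from 2337 CPM on day 1 to 1323 CPM on day 5, and was at 3470 and 3221 CPM in selpercatinib on those days. Epcam, an epithelial adhesion gene, was at 299 to 384 CPM in DMSO and 386 to 443 CPM in selpercatinib. The alveolar surfactant genes Sftpc and Sftpb were at or near 0, with at most 0.0432 and 0.324 CPM. In these bulk libraries a change in the number of cells that express a gene and a change in its RNA per cell cannot be told apart.

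The genes whose log2(CPM + 1) was most like that of Acta2 over the 8 acute libraries, among 10669 genes with a mean of at least 5 CPM, were Mcam, Sema3d, Ext1, Tll1 and Numb. Their Pearson r lay between 0.997 and 0.999, a description only, since the libraries share the treatment and day. Mcam, which encodes a cell adhesion molecule of vascular smooth muscle and endothelium, was at 23.9 to 26.4 CPM in DMSO and at 132, 239, 327 and 507 CPM in selpercatinib in order of day. Among the contractile genes the r with Acta2 was highest for Tpm2 and Myl9, both at 0.99, and lowest for Lmod1 at 0.82 and Myh11 at 0.67.

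In the resistant cultures the same genes were read in a separate set of libraries. Acta2, Myl9, Cnn1 and Lmod1 were near 0 in parental cells and present in both resistant groups, Tpm1 and Tpm2 were higher in both, and Cald1 was higher in selpercatinib-resistant cells by a small margin. Tagln, Actg2 and Myh11 did not exceed 0.267 CPM in any of the 6 libraries. The members took 0.225 to 0.228% of counts in parental, 0.365 to 0.387% in selpercatinib-resistant and 0.345 to 0.361% in pralsetinib-resistant libraries.

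Acta2 was at 0.175 and 0.0398 CPM in the parental libraries. It was at 314 and 302 CPM in the selpercatinib-resistant libraries and at 236 and 99.5 CPM in the pralsetinib-resistant libraries of 200 and 400 nM. The resistant libraries were all far above the parental ones, and the selpercatinib-resistant pair above both pralsetinib-resistant libraries. The log2 change from parental was 11.59 (SE 0.66, adjusted p = 3.99e-06) in selpercatinib-resistant and 10.71 (SE 0.66, adjusted p = 5.77e-06) in pralsetinib-resistant cells by edgeR's quasi-likelihood test, with the parental libraries shared between these comparisons. Acta2 passed the filter through resistant libraries alone, and its rise was known beforehand. Only a rise could be called, so these p-values are no independent support of its direction.

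Myl9 had no count in either parental library. It was at 31.1 and 26.3 CPM in selpercatinib-resistant cells and at 22.8 and 11.8 CPM in pralsetinib-resistant cells. Against the floor of 3 counts per library this is at least 622-fold and at least 375-fold higher, with edgeR adjusted p = 1.27e-05 and 1.90e-05. Cnn1 had 0 counts and 1 count in the parental libraries, stood at 6.85 and 7.03 CPM in selpercatinib-resistant cells and was higher, at 12.6 and 10.3 CPM, in pralsetinib-resistant cells. Its count ratio to parental was 920 (95% counting interval 165 to 36388) and 1514 (271 to 59854), with edgeR adjusted p = 6.19e-07 and 3.78e-07. Lmod1 had 0 and 2 counts in parental libraries and stood at 2.31 and 1.70 CPM in selpercatinib-resistant and 1.45 and 0.997 CPM in pralsetinib-resistant cells. The ratio was 131 (36.0 to 1089) and 80.9 (22.1 to 673), with edgeR adjusted p = 3.48e-05 and 7.81e-05. Myl9, Cnn1 and Lmod1 also passed the filter through resistant libraries alone, so for these only a rise could be called.

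**Figure D4:**
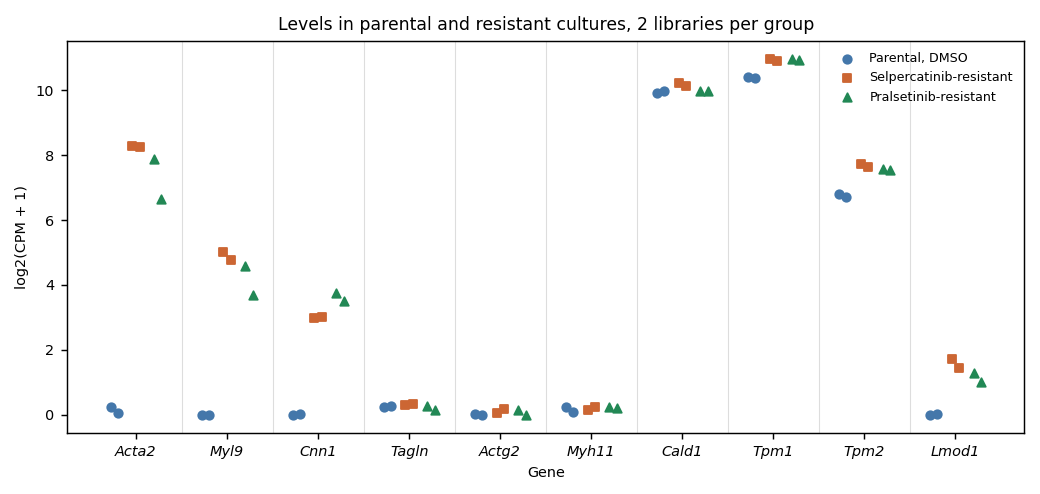
Level of each contractile gene (log2(CPM + 1), y axis) in the 6 libraries of the resistance experiment, with circles for parental, squares for selpercatinib-resistant and triangles for pralsetinib-resistant cells, the 200 nM library left of the 400 nM library. Acta2 lies at 99.5 to 314 CPM in resistant libraries and at no more than 0.175 CPM in parental ones, and Tagln, Actg2 and Myh11 stay near 0 in all.

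The abundant thin filament genes changed by much smaller factors. Tpm2 was at 112 and 104 CPM in parental, 209 and 200 CPM in selpercatinib-resistant and 190 and 188 CPM in pralsetinib-resistant libraries. The resistant libraries did not overlap with the parental ones, and the log2 changes were 0.92 (SE 0.06, adjusted p = 9.97e-06) and 0.81 (SE 0.06, adjusted p = 1.91e-05) in edgeR. Tpm1 was at 1362 and 1334 CPM in parental, 1982 and 1905 CPM in selpercatinib-resistant and 2020 and 1944 CPM in pralsetinib-resistant libraries, with log2 changes of 0.53 (SE 0.06, adjusted p = 0.000117) and 0.56 (SE 0.06, adjusted p = 8.45e-05) in edgeR. Cald1 was at 958 and 1002 CPM in parental, 1209 and 1112 CPM in selpercatinib-resistant and 1006 and 1008 CPM in pralsetinib-resistant libraries. Its log2 change was 0.24 (SE 0.06, edgeR adjusted p = 0.0108) in selpercatinib-resistant cells, a call lost without the parental library 1 (adjusted p = 0.0884) or the selpercatinib-resistant library 1 (adjusted p = 0.102). In pralsetinib-resistant cells it was 0.04 (SE 0.06) and did not pass, with edgeR adjusted p = 0.608.

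Counted over those that passed the filter of 1 CPM in at least 2 libraries, 7 of the 10 genes were tested. All 7 were called higher in selpercatinib-resistant cells, where 35.2% of the 14389 genes tested were higher, 34.4% lower and 69.6% called in either direction. In pralsetinib-resistant cells 6 were called higher, where the shares of all genes were 35.8, 34.6 and 70.3%. Acta2, Myl9, Cnn1 and Lmod1 passed the filter through resistant libraries alone, so a fall could not have been called for them and the counts are no support of a direction. Of the 7, Tpm1, Tpm2 and Cald1 were above the filter in every library. Fitted without the filter, none of Tagln, Actg2 and Myh11 was called in either group, with edgeR adjusted p from 0.125 to 0.750.

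The resistant groups were compared with each other in the same fit, in which 10.6% of genes were called, 6.46% higher and 4.13% lower in selpercatinib-resistant cells. Cnn1 was the only contractile gene called of the 7, lower in selpercatinib-resistant cells by 0.72 on the log2 scale, written as -0.72 (SE 0.15, edgeR adjusted p = 0.0290). The call was lost, at adjusted p from 0.0519 to 0.251, when a parental or a selpercatinib-resistant library was left out or the parental group was dropped. The log2 difference was 0.88 (SE 0.34) for Acta2, 0.73 (SE 0.28) for Myl9 and 0.71 (SE 0.31) for Lmod1, and none passed, at edgeR adjusted p = 0.144, 0.159 and 0.186. The pralsetinib-resistant libraries differ from each other in labelled dose. Acta2 differed by 1.63 (edgeR adjusted p = 1.31e-08) with the 400 nM library alone and by 0.38 (edgeR adjusted p = 0.00186) with the 200 nM library alone. In these fits a single library stands for the pralsetinib-resistant group and is assumed to vary like the libraries of the other groups, although the pair itself stood at 236 and 99.5 CPM. Dose and library cannot be told apart there. For Cald1, Tpm2 and Tpm1 it was 0.21 (SE 0.06), 0.12 (SE 0.06) and -0.03 (SE 0.06), which did not pass, at edgeR adjusted p = 0.0877, 0.277 and 0.791.

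Set beside the acute course, the resistant levels did not all lie at the same point of it, without a test, since the tables were scaled apart. Acta2 in the resistant libraries, at 99.5 to 314 CPM, lay within the range of its treated libraries of days 1 to 5. Cnn1 at 6.85 to 12.6 CPM lay between its treated libraries of day 1 and day 2, Myl9 at 11.8 to 31.1 CPM between those of day 1 and day 3, and Lmod1 at 0.997 to 2.31 CPM between those of day 2 and day 3. Cald1, Tpm1 and Tpm2 were below each of their acute treated libraries in every resistant library, and Myh11, at 14.2 CPM on acute day 5, was at 0.105 to 0.191 CPM.

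The wider contractile list was again mostly higher in resistant cells, with 19 of 31 measured genes higher and 4 lower in selpercatinib-resistant cells, and 18 higher and 6 lower in pralsetinib-resistant cells, at medians of 0.43 and 0.39 on the log2 scale. The shares over all genes were 35.2% higher and 34.4% lower, and 35.8 and 34.6%, respectively. Synpo2 and Ldb3 in both groups and Ppp1r14a in pralsetinib-resistant cells were below 1 CPM in parental cells, so for these only a rise could be called. Pdlim5, a PDZ and LIM protein of actin bundles, rose by 1.63 (SE 0.07) and 1.35 (SE 0.07), Myh10, a non-muscle myosin heavy chain gene, by 1.40 (SE 0.08) and 1.06 (SE 0.08), and Tpm4, another tropomyosin gene, by 1.05 (SE 0.08) in selpercatinib-resistant cells. The essential light chain gene Myl6 rose by 1.34 (SE 0.10) in pralsetinib-resistant cells. Neither gene was particular to 1 group by its level. Tpm4 stood at 926 and 809 CPM in pralsetinib-resistant and 533 and 556 CPM in parental libraries. Myl6 stood at 735 and 724 CPM in selpercatinib-resistant and 305 and 313 CPM in parental libraries. Smtn fell by 1.62 (SE 0.07) and 1.61 (SE 0.07), from 152 and 158 CPM in parental libraries to between 48.6 and 52.6 CPM in the resistant ones. Mylk did not pass in selpercatinib-resistant cells, at 0.24 (SE 0.13, edgeR adjusted p = 0.146), and was lower in pralsetinib-resistant cells, at -0.36 (SE 0.13, edgeR adjusted p = 0.0415). Actb and Actg1 rose in both, by 0.30 and 0.63 in selpercatinib-resistant and 0.31 and 0.52 in pralsetinib-resistant cells, and Acta1 did not exceed 0.438 CPM.

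Of 14 measured genes of the SRF list 6 were higher and 6 lower in each resistant group, an even split, as over all genes (35.2 and 34.4% in selpercatinib-resistant, 35.8 and 34.6% in pralsetinib-resistant cells). Srf was higher by 0.49 (SE 0.06) in both groups, whereas Mrtfa and Mrtfb, which rose acutely, were lower, by -0.44 (SE 0.08) and -0.50 (SE 0.08) in selpercatinib-resistant and -0.65 (SE 0.08) and -0.67 (SE 0.08) in pralsetinib-resistant cells. Myocd had 0 to 5 counts per library. Klf4, a factor that represses smooth muscle genes, fell by 1.93 (SE 0.15) in selpercatinib-resistant cells. In pralsetinib-resistant libraries Klf4 stood at 37.6 and 26.5 CPM, against 107 and 112 CPM in parental ones. On acute days 1, 2, 3 and 5 Klf4 was at 66.4, 56.3, 46.2 and 56.9 CPM in DMSO. In selpercatinib it was at 83.1, 70.6, 49.7 and 42.9 CPM, thus below DMSO on day 5 only. The part of Klf4 in the levels of the contractile genes was not tested. Klf15, a Krüppel-like factor gene, rose by 3.76 (SE 0.19) and 4.18 (SE 0.19), from under 1 CPM in parental libraries, so that only a rise could be called. Fhl1 rose by 1.91 (SE 0.13) and 2.91 (SE 0.13) and Csrp1 by 1.66 (SE 0.12) and 1.60 (SE 0.12), and both had also risen in the acute course. For the genes named in this and the previous paragraph as changed in resistant cells, edgeR's adjusted p was below the threshold of 0.05.

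Markers of other cell types also moved between parental and resistant cells. The fibroblast markers summed to 96.9 and 103 CPM in parental, 2480 and 2660 CPM in selpercatinib-resistant and 1518 and 1762 CPM in pralsetinib-resistant libraries, with 9 of 9 and 8 of 9 measured genes higher. Over all genes 35.2% were called higher and 34.4% lower in selpercatinib-resistant cells, and 35.8 and 34.6% in pralsetinib-resistant cells. Col3a1, a fibrillar collagen gene, rose by 10.29 (SE 0.48) and 9.54 (SE 0.48). Col1a2, Col3a1, Dcn and Postn passed the filter through resistant libraries alone, so for these only a rise could be called. The epithelial markers summed to 8002 and 8087 CPM in parental libraries, 1145 and 1220 CPM in selpercatinib-resistant and 604 and 1245 CPM in pralsetinib-resistant libraries, with 8 of 9 measured genes lower in each group and Epcam at 0.521 to 1.38 CPM. The remaining gene, Nkx2-1, was called higher in selpercatinib-resistant cells, at 8.28 and 6.61 CPM against 1.84 and 1.86 CPM in parental libraries. It was not called in pralsetinib-resistant cells, at 2.44 and 0.568 CPM. Pericyte markers were mixed, with 4 of 6 measured genes higher and 2 lower in each group. Pdgfrb, a mural cell and fibroblast receptor gene, rose by 10.02 (SE 0.57) and 9.16 (SE 0.59) and, like Cspg4, passed the filter through resistant libraries alone. Notch3 rose by 5.30 (SE 0.10) and 4.28 (SE 0.10) and Mcam by 3.06 (SE 0.07) and 3.11 (SE 0.07), while Npnt fell by 2.13 (SE 0.11) and 2.29 (SE 0.11). Kcnj8, Abcc9, Higd1b and Pln did not exceed 0.120 CPM, and the sum of the list was 657 and 658 CPM in parental, 385 and 398 CPM in selpercatinib-resistant and 294 and 345 CPM in pralsetinib-resistant libraries. Npnt alone was at 639 CPM in both parental libraries. It was at 147 and 144 CPM in selpercatinib-resistant and 146 and 115 CPM in pralsetinib-resistant libraries. The sum thus fell with Npnt, although Pdgfrb, Notch3 and Mcam rose. The part of these marker changes in the levels of the contractile genes was not tested.

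**Figure D5:**
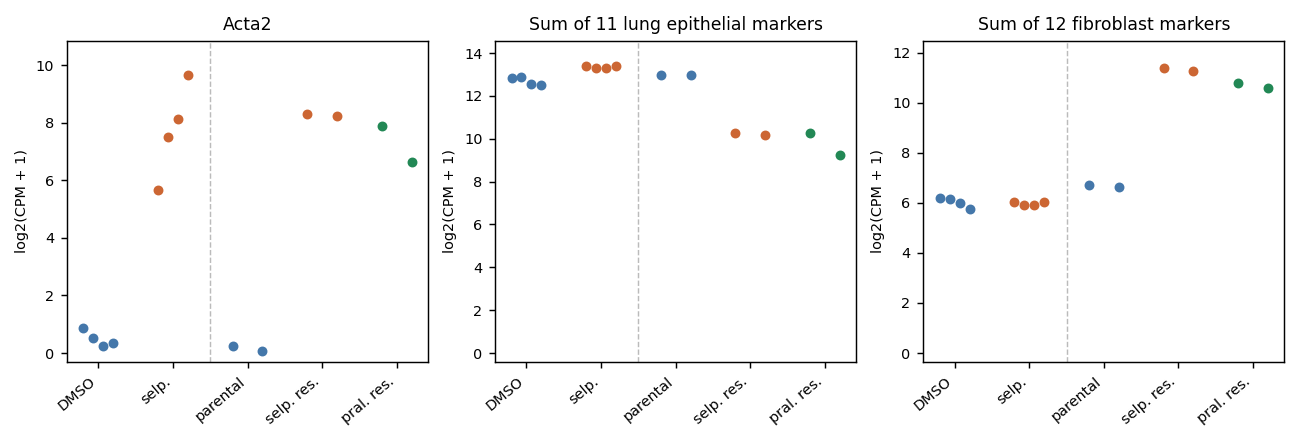
Acta2 (left), the summed 11 lung epithelial markers (middle) and the summed 12 fibroblast markers (right), as log2(CPM + 1) on the y axis, in each of the 14 libraries by group, with acute libraries left of the dashed line in order of day. Acta2 is high both in treated acute libraries and in resistant ones, while fibroblast markers reach 1518 to 2660 CPM and epithelial markers drop to 604 to 1245 CPM in the resistant libraries.

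The remaining marker lists held few measured genes. Of the myoepithelial list only Trp63 was measured, and it rose by 4.40 (SE 0.39) and 2.37 (SE 0.45), having passed the filter through the selpercatinib-resistant libraries alone, at 1.92 and 1.36 CPM, with the list's sum at no more than 2.55 CPM in any resistant library. Of 3 measured skeletal and cardiac genes Tnnt2 fell by 6.67 (SE 0.10) and 6.77 (SE 0.10) in selpercatinib- and pralsetinib-resistant cells, Tnnc1 fell by 0.63 (SE 0.21) in the former and Mylpf, a fast skeletal light chain gene, rose by 0.92 (SE 0.27) and 0.75 (SE 0.27). Of 3 measured endothelial and immune genes Cd68 fell in each group and Kdr rose in pralsetinib-resistant cells, with a sum of 6.39 to 7.78 CPM in resistant libraries.

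The genes most like Acta2 in the acute libraries did not all go with it in the resistant ones. Mcam rose in both groups, as given above, and Sema3d, a secreted semaphorin gene, rose by 5.21 (SE 0.38) and 5.86 (SE 0.37). Tll1, a tolloid-like protease gene, rose by 3.50 (SE 0.32) and 2.28 (SE 0.34). Sema3d and Tll1 were under 1 CPM in parental cells and passed the filter through resistant libraries alone, so for these only a rise could be called. Ext1, a heparan sulfate synthesis enzyme gene, rose by 0.72 (SE 0.09) in selpercatinib-resistant cells and did not pass in pralsetinib-resistant cells, at 0.16 (SE 0.09, edgeR adjusted p = 0.161). Numb, an inhibitor of Notch signaling, fell by 0.88 (SE 0.10) and 0.97 (SE 0.10), although it was higher in the acute treated libraries, at 52.9 to 65.1 CPM against 40.1 to 41.7 CPM.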

How the data were processed

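The deposited tables, named as CPM, hold whole numbers summing to 60.7 to 89.8 M per library, so these deposited values were treated as raw read counts. The submitters' processing notes name FastQC, STAR, edgeR and the build mm10, without versions. Libraries were strand-specific and poly-A selected, per the labels' protocols, and no counting tool, annotation or strand setting is named in the sources used here. Of 55415 rows 55391 matched GENCODE M21 symbols, and the other 24, named by numbers, held 0.163 to 0.215% of counts and were kept.

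Counts were tested with edgeR 4.0.16 (TMM, quasi-likelihood, two-sided) in R 4.3.3, with Benjamini-Hochberg adjustment over all genes tested and a threshold of 0.05. Genes needed 1 CPM in at least 4 acute or 2 resistance libraries, which kept 13209 and 14389. The acute fit had day as a block, since per the labels a batch is a day and holds both arms. After subtraction of the arm means, libraries of the same day correlated at 0.513 to 0.669, and those of different days at up to 0.618. The resistance groups shared 1 fit of 6 libraries. No pair of libraries in a group was a duplicate within sampling noise (chi-square over degrees of freedom 7.02 in parental, 13.0 in selpercatinib-resistant and 44.8 in pralsetinib-resistant cells). Alternatives used DESeq2 1.42.0, limma 3.58.1, other scaling, no filter, other blocks and omission of each library or day. Gene coordinates and exon lengths are from GENCODE M21. Figures were drawn with matplotlib 3.10.9.

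The members and gene lists were chosen with earlier results of these data known. Named besides the 10 members are up to 4 called genes per list with the lowest p, without Gm or Rik names, and the 5 genes with a mean CPM of at least 5 most like Acta2 by Pearson r. Outside that rule, Srf, Mrtfa, Mrtfb, Myocd, Mylk, Smtn, Des, Kcnmb1, Acta1, Actc1, Synpo2, Ppp1r14a, Cspg4, Krt17, Thy1, Postn, Epcam, Sftpc, Sftpb and the pericyte markers at or near 0 were named after their values were seen, as were Gm48529 and Pcsk7. Col1a2, Dcn, Nkx2-1, Ngfr, Oxtr, Krt15 and Elk4 were also named with their values known. The SRF list holds Mrtfa and Mrtfb also under older names, which the tables lack. Results of 1 further gene list and of 1 gene are not reported here.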

Additional observations from a re-analysis of the deposited data

Results flagged for a closer look

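In 20 groups of 4 acute libraries (10 genes, 2 arms), 3 held a library far from the other 3. Among repeats of a single time, chance would give about 5% of groups. Each far library is a day 5 library. The 4 libraries of an arm are from different days and not such repeats, so that rate does not apply and nothing is read from the number of groups. Myh11 was at 14.2 CPM in selpercatinib on day 5 against at most 1.49 CPM before. Actg2 was at 0.0282 CPM in DMSO on day 5, from 2 counts, against 0 before, which is under the floor of 3 counts. Tpm2 was at 77.3 CPM in DMSO on day 5 against 104 to 107 CPM before. Between the resistant groups, whose contrasts with parental cells can be set against each other by a direct test, Cnn1 differed, at -0.72 on the log2 scale for selpercatinib-resistant minus pralsetinib-resistant cells (edgeR adjusted p = 0.0290, both selpercatinib-resistant libraries below both pralsetinib-resistant ones).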

How the results depend on the processing

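Against parental cells, 7 members were called higher in selpercatinib-resistant cells under each alternative run, except for 6 without the parental or the selpercatinib-resistant library 1, where Cald1 was lost, and 6 were called higher in pralsetinib-resistant cells under each alternative run. Cald1 in the latter, at 0.04 and not called, ran from -0.0059 (without parental library 1) to 0.054 with a library left out. The difference between the resistant groups was the unstable result. It called 1523 genes, against 2371 with DESeq2, 644 with limma on log2(CPM + 0.1), 2745 without the filter and 568 with only those groups in the fit, and from 8 to 4443 when a library was left out. The lowest counts came without the selpercatinib-resistant library 1 (8) or 2 (118), and 553 and 551 without parental library 1 or 2, while 4443 and 3879 came without the 200 or the 400 nM library. The members higher in it numbered 0, against 1 with DESeq2 and 3 without the filter, and from 0 to 4 with a library left out. The members lower in it numbered 1, against 0 with only those groups in the fit and from 0 to 1 with a library left out. Tpm1 in it, at -0.03 and not called, ran from -0.057 to 0.0044 (without the selpercatinib-resistant library 2). The cause of these shifts was not tested.

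With the replicate number as a block, parental and selpercatinib-resistant libraries alone gave 11027 calls and 7 members higher. These calls were 5590 higher and 5437 lower, against 5667 and 5503 for the same groups alone without a block. The labels do not say that the numbers pair the libraries, and same-numbered libraries deviated with a correlation of -0.11, so a crossed pairing was added after seeing the data, with 11362 calls. Without the day as a block the acute fit called 5070 genes, against 7072. Replacing the added 1 CPM by 0.1 CPM raised the log2 ratio on day 5 to 9.56 for Myl9, 9.51 for Cnn1 and 5.47 for Lmod1, since these were near 0 in DMSO. Depth limits Tagln, Actg2, Myh11 and Myocd most outside the acute treated libraries, where at most 25 counts per library set the level. In selpercatinib on day 5 Myh11 had 1150 counts and Tagln 114.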
